A study of Mus musculus with 8 samples.

Results

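The smooth muscle contractile genes examined here were Acta2, Actg2, Tagln, Cnn1, Myh11, Myocd, Lmod1, Des, Tpm1 and Mylk. Every probe set whose platform gene symbol was one of these 10 names was taken, which gave 20 probe sets of the 45037 that remained on the array after its controls were left out. They were followed across 8 Affymetrix arrays of lung mesenchyme, the loose tissue that surrounds the airway epithelium, from CD1 mouse embryos staged e11.5 to e12.5. The groups had 2 arrays each and were stalk mesenchyme cultured for 12 h on tissue culture plastic with 400 ng/ml Wnt1, a secreted signalling protein, stalk mesenchyme cultured for 12 h in control growth medium, uncultured tip mesenchyme from around the growing branch ends, and uncultured stalk mesenchyme from the older airway behind the tips. No genotype other than the CD1 strain was given for any group, and all RNA was amplified over 2 rounds of cDNA synthesis. The labels do not say whether the arrays of a group came from separate litters or pools of embryos, so p-values measure how far these arrays spread, and that spread may be only technical.

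Smooth muscle forms a layer around the airway behind the growing tips and contracts when myosin, phosphorylated by myosin light chain kinase, pulls on filaments of smooth muscle actin. Tropomyosin, calponin, transgelin and leiomodin bind these filaments, desmin links the cells' contractile bodies, and many of the genes are switched on by serum response factor together with the coactivator myocardin. Serum response factor binds a short AT-rich sequence called the CArG box.

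The promoter windows of 3 contractile genes are shown because they held sequences within 1 base of a CArG box. RefSeq promoter windows on GRCm38.p6, running from 250 bases before to 50 bases after the gene start, were at hand for Acta2, Cnn1, Lmod1, Des, Tpm1 and Mylk. The genes Actg2, Tagln, Myh11 and Myocd had no entry. Both strands were searched for the CArG box, and the capitals mark the matches that differ from it by 1 base. The Acta2 window lies at chr19:34255324-34255623 on the minus strand, that of Lmod1 at chr1:135324563-135324862 on the plus strand and that of Tpm1 at chr9:67049164-67049463 on the minus strand.
Acta2: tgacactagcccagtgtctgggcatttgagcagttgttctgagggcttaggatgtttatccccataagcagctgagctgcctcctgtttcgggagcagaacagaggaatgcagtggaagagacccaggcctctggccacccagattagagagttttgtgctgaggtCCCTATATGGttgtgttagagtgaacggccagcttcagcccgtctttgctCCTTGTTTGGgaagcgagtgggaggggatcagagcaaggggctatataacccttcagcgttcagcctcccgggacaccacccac
Lmod1: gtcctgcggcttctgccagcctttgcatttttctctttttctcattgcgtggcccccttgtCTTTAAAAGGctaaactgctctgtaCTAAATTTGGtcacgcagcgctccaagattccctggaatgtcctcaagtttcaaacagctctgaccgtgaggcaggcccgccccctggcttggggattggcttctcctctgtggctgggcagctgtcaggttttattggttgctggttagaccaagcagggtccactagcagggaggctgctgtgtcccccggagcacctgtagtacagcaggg
Tpm1: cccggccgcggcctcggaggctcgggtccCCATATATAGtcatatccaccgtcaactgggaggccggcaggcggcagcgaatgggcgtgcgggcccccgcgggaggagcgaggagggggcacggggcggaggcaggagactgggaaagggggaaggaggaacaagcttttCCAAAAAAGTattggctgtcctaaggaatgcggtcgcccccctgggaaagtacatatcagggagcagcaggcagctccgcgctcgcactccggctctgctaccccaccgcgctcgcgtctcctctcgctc
In Acta2 the matches began 84 and 34 bases before the gene start, in Lmod1 189 and 164 bases before it, and in Tpm1 221 and 80 bases before it. An exact CArG box was in 0 of the 6 windows, against 1.63% of 32851 mouse promoter windows of the same length. A match within 1 base was in 3 of the 6, against 21.1% of all windows. At least 2 such matches were in the same 3 of the 6, against 3.7% of all windows. A match is a description of the letters and does not by itself show a binding site, and binding was not measured here.

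The signal is the MAS5 intensity, a linear value scaled on each array to a 2% trimmed mean of 500, and fold changes are differences of log2(signal + 44). The culture arrays stood apart from the uncultured ones. Their median signal was 149 to 298.6 against 76.5 to 99.8, the ratio of 3' to 5' signal of Actb, a measure of RNA and label quality, was 6.81 to 24.4 against 2.02 to 4.52, and the added bacterial control BioB read 5136 to 21109 against 896 to 2135. The highest array median, 298.6, was used as a signal floor in place of detection calls. Over all 45037 probe sets the median log2 fold change was 0.68 for control culture minus stalk and 0.54 for Wnt1 culture minus stalk, but -0.18 in both over the 15211 probe sets whose mean signal was above the floor. The 9 lung mesenchyme markers summed to 23606 to 54823 on the culture arrays and to 42741 to 58198 on the uncultured arrays. Of these markers 5 were lower in Wnt1 culture than in stalk and 6 in control culture, but 1 in each under quantile normalization, and 0 in Wnt1 culture and 1 in control culture with the signal floor. Of all 18193 genes, by 1 probe set each and in the main test, 807 were lower in Wnt1 culture and 1277 in control culture. Tbx4 was at 1098 ± 120 in Wnt1 culture, 809 ± 96.2 in control culture and 3868 ± 617 in stalk (SD, n = 2 each). Not all 9 markers fell, and 1 was above 0 in Wnt1 culture minus stalk and 2 in control culture minus stalk. Col1a1 read 2318 and 1936 in Wnt1 culture and 1463 and 6124 in control culture, against 965 and 1122 in stalk.

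Control culture against uncultured stalk compared the contractile genes with and without 12 h of culture. Both culture groups also differ from stalk in the array measures above, so culture and array quality cannot be told apart. In cultured stalk the smooth muscle actins Acta2 and Actg2, the actin-binding proteins Tagln, Cnn1 and Lmod1, and desmin were higher, as were 1 of the Tpm1 and 1 of the Myh11 probe sets. Among the called probe sets the mean signal was 5.6 to 51.3 times that in stalk. The stalk means of Tagln, Cnn1, Lmod1, Des and Myh11 lay below the floor. Mylk and Myocd were not called. Of the 20 member probe sets 10, from 8 genes, were higher and 0 were lower (limma, adjusted p under 0.05 over all probe sets). The share called over all probe sets was 12.4% higher and 4.82% lower. The members' median log2 fold change was 2.02, against 0.68 over all probe sets. Without stalk replicate 1 or stalk replicate 2 the count of members called was 4, and without control culture replicate 1 it was 5, always with 0 lower. The brightest Acta2 probe set, Actg2, Tagln and Cnn1 kept their calls each time, and Des by its brighter probe set kept its call without control culture replicate 1. In pieces of tissue like these, a change in the number of cells of a type and a change in RNA per cell cannot be told apart.

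Acta2, the alpha smooth muscle actin, gave 101822 and 89032 in control culture, against 3321 and 4457 in stalk by its brightest probe set. Where a gene had several probe sets they are named by brightness, the mean signal over the 8 arrays. Both culture arrays lay far above both stalk arrays, and the log2 fold change was 4.61 ± 0.54 (SE; limma adjusted p = 0.0011). The platform marks that probe set, by the suffix _s_at, as one that may also read other transcripts, and actin genes are similar in sequence. The part of other actins in this signal was not tested. The other Acta2 probe sets were dim. The brighter of them read 553 and 116 in control culture against 16.4 and 3.32 in stalk and was called, at 2.53 ± 0.78 (limma adjusted p = 0.042), although 1 of 8 arrays exceeded the floor, while the dimmest exceeded it on 0 of 8 arrays and was not called, except under 3 alternatives.

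Actg2, the gamma smooth muscle actin, had 8366 and 8270 in control culture, against 456 and 525 in stalk. The replicates of each group were close to each other, and the log2 fold change was 3.97 ± 0.47 (SE; limma adjusted p = 0.0011). Actg2 and Tagln kept their call under each of the 20 alternative settings, the signal floor included.

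Tagln, transgelin, an actin-binding protein of early smooth muscle, showed the largest fold change of the 20 member probe sets. It had 12300 and 9306 in control culture, against 189 and 232 in stalk, where both values were below the floor. The mean signal was 51.3 times higher in culture, with a log2 fold change of 5.40 ± 0.45 (SE; limma adjusted p = 0.00013). Cnn1, calponin, which restrains the myosin motor on actin, had 1777 and 1185 in control culture, against 105 and 136 in stalk. The groups did not overlap, and the log2 fold change was 3.19 ± 0.49 (SE; limma adjusted p = 0.0046). Lmod1, leiomodin, which nucleates actin filaments in smooth muscle, had 777 and 363 in control culture, against 47.3 and 48.7 in stalk, a log2 fold change of 2.65 ± 0.58 (SE; limma adjusted p = 0.016). It was not called with the signal floor, with quantile normalization, or without control culture replicate 1 (limma adjusted p = 0.57, 0.088 and 0.10), nor without stalk replicate 1 or 2 (limma adjusted p = 0.12 and 0.15).

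Tpm1, tropomyosin, is used by many cell types besides smooth muscle, and its 4 probe sets differed. By the second brightest it had 6189 and 2656 in control culture, against 805 and 773 in stalk, with a log2 fold change of 2.30 ± 0.48 (SE; limma adjusted p = 0.015). By the brightest it had 2965 and 3622 in control culture, against 1367 and 1640 in stalk, and 1.11 ± 0.39 missed the threshold (limma adjusted p = 0.062). That probe set passed it under 8 alternatives, quantile normalization among them (limma adjusted p = 0.026). The third probe set overlapped between the groups, and the dimmest was below the floor on 7 of 8 arrays.

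Des, desmin, the muscle intermediate filament protein, by its brighter probe set had 691 and 2144 in control culture, against 278 and 225 in stalk. Both culture arrays were above both stalk arrays, with a wide gap between the culture replicates, and the log2 fold change was 2.11 ± 0.49 (SE; limma adjusted p = 0.019). The dimmer Des probe set was called at 2.42 ± 0.64 (limma adjusted p = 0.028), with 377 and 197 in control culture against 24.5 and 7.33 in stalk. Myh11, the smooth muscle myosin heavy chain and the latest of these markers to appear in development, stayed close to the floor. By the brighter probe set it had 321 and 300 in control culture, against 101 and 68.1 in stalk, and 1.47 ± 0.60 was not called (limma adjusted p = 0.093). By the dimmer one it had 678 and 239 in control culture, against 16.2 and 21.7 in stalk, and 2.84 ± 0.68 was called (limma adjusted p = 0.021). The call was lost with the signal floor, with quantile normalization, and without control culture replicate 1, the array that exceeded the floor (limma adjusted p = 0.58, 0.10 and 0.11), and also without stalk replicate 1 or 2 (limma adjusted p = 0.14 and 0.18).

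Mylk, the myosin light chain kinase, and Myocd, the myocardin gene itself, were bright enough to measure and were not called. By its brightest probe set Mylk had 1938 and 2452 in control culture, against 2179 and 3764 in stalk, and by the second brightest 1324 and 1326 in control culture, against 1441 and 1966 in stalk. The sign of both Mylk probe sets turned from below to above 0 with quantile normalization, so no direction is given for them. The dimmest Mylk probe set had 443 and 304 in control culture, against 81.7 and 47.4 in stalk, and 1.94 ± 0.64 missed the threshold (limma adjusted p = 0.053). It passed under 7 alternatives, among them the filter on low values (limma adjusted p = 0.040) and the replicate block (limma adjusted p = 0.035). Myocd by its brighter probe set had 449 and 420 in control culture, against 549 and 641 in stalk, so that both culture arrays lay below both stalk arrays. The 95% interval of that difference, -1.39 to 0.56 on the log2 scale, holds 0. The dimmer Myocd probe set exceeded the floor on 1 of 8 arrays.

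**Figure D1:**
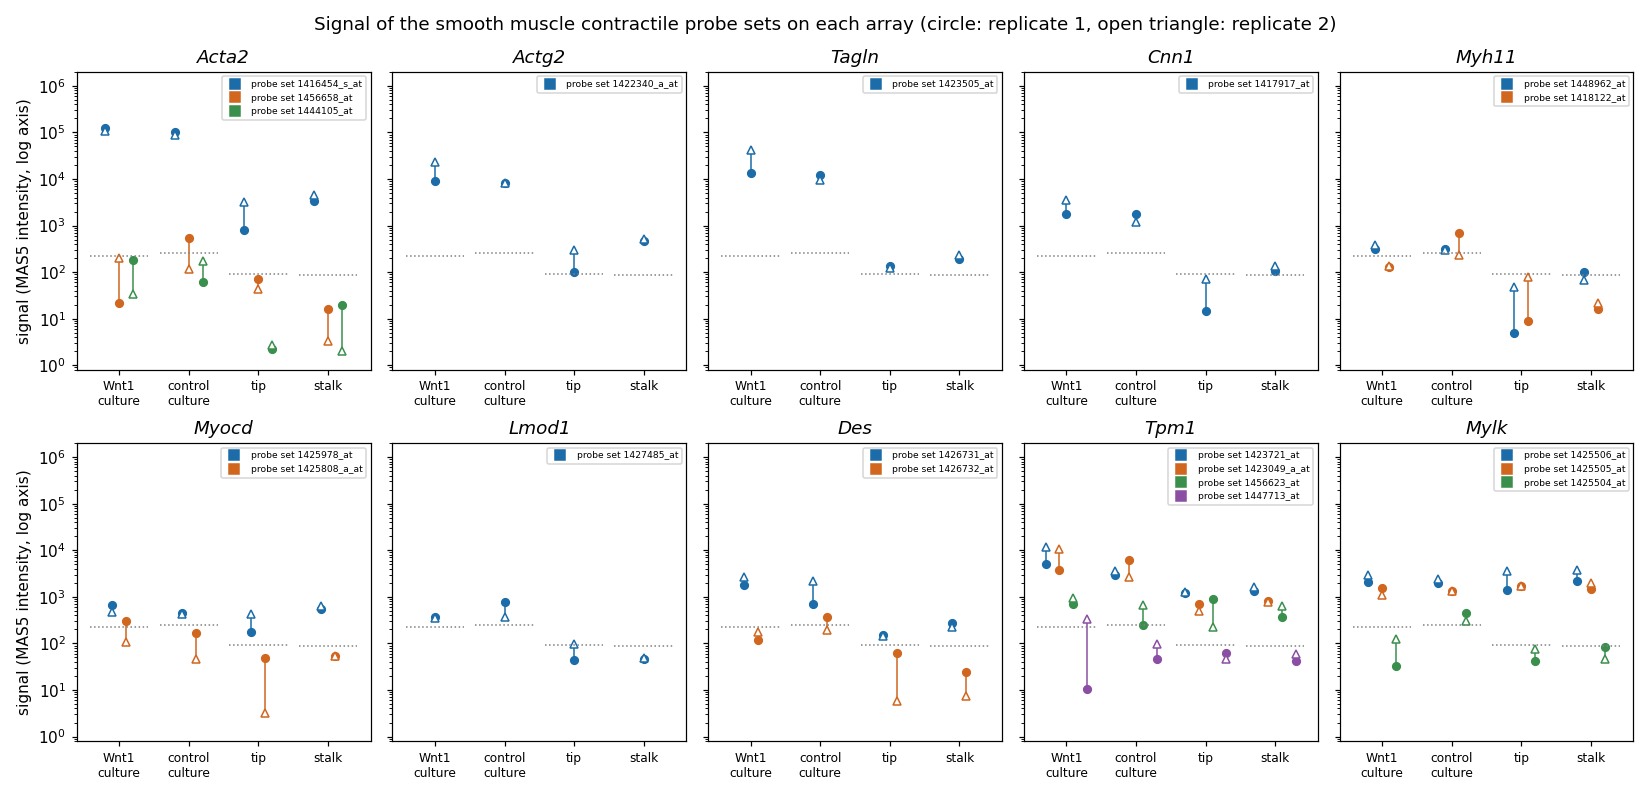
Signal (MAS5 intensity, log axis) of the 20 member probe sets on each of the 8 arrays, 1 panel per gene and 1 colour per probe set, with the groups Wnt1 culture, control culture, tip and stalk from left to right. Circles are replicate 1, open triangles replicate 2, and the dotted grey line is the mean of the group's array medians. The brightest probe sets of Acta2, Actg2, Tagln and Cnn1 lie higher in both culture groups than in tip and stalk, whereas those of Mylk and Myocd overlap between cultured and uncultured arrays.

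Wnt1 culture against stalk used the same stalk arrays, so its values stand beside those above and do not count as a repeat. In Wnt1 culture 8 of the 20 probe sets, from 7 genes, were higher than in stalk and 0 were lower, against 3.72% and 2.88% of all probe sets. The members' median log2 fold change was 1.54, against 0.54 over all probe sets. The count was 4 without stalk replicate 2 and 11 without both culture arrays numbered 1. Tagln had 13439 and 41328 in Wnt1 culture, against 189 and 232 in stalk, 130 times higher in mean signal, with a log2 fold change of 6.54 ± 0.45 (SE; limma adjusted p = 4.4e-05). The culture replicates lay far apart here, yet both were far above stalk. Acta2 by its brightest probe set had 122878 and 107622 in Wnt1 culture, against 3321 and 4457 in stalk (4.89 ± 0.54, SE; limma adjusted p = 0.00092).

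Actg2 had 9150 and 23174 in Wnt1 culture, against 456 and 525 in stalk, a log2 fold change of 4.77 ± 0.47 (SE; limma adjusted p = 0.00041). Cnn1 had 1774 and 3535 in Wnt1 culture, against 105 and 136 in stalk (3.96 ± 0.49, SE; limma adjusted p = 0.0015). In both genes replicate 2 of Wnt1 culture was the highest of all 8 arrays. Des by its brighter probe set had 1752 and 2658 in Wnt1 culture, against 278 and 225 in stalk (2.90 ± 0.49, SE; limma adjusted p = 0.0082). For Tpm1 both brighter probe sets were called, the second brightest with 3840 and 10566 in Wnt1 culture against 805 and 773 in stalk, and the brightest with 4975 and 11477 in Wnt1 culture against 1367 and 1640 in stalk. Their log2 fold changes were 2.95 ± 0.48 and 2.30 ± 0.39 (SE; limma adjusted p = 0.0074 and 0.0084).

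Lmod1 had 368 and 354 in Wnt1 culture, against 47.3 and 48.7 in stalk, and was just inside the threshold at 2.14 ± 0.58 (SE; limma adjusted p = 0.045). Its call held under 10 of the 20 alternatives and was lost without Wnt1 culture replicate 1 (limma adjusted p = 0.13). Neither Myh11 probe set was called. By its brighter probe set Myh11 had 319 and 374 in Wnt1 culture, against 101 and 68.1 in stalk (1.61 ± 0.60, SE; limma adjusted p = 0.097), and by the dimmer one 126 and 136 in Wnt1 culture, against 16.2 and 21.7 in stalk (1.47 ± 0.68, SE; limma adjusted p = 0.16). The 2 bright Mylk probe sets and Myocd were not called either, Myocd with 679 and 471 in Wnt1 culture against 549 and 641 in stalk.

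**Figure D2:**
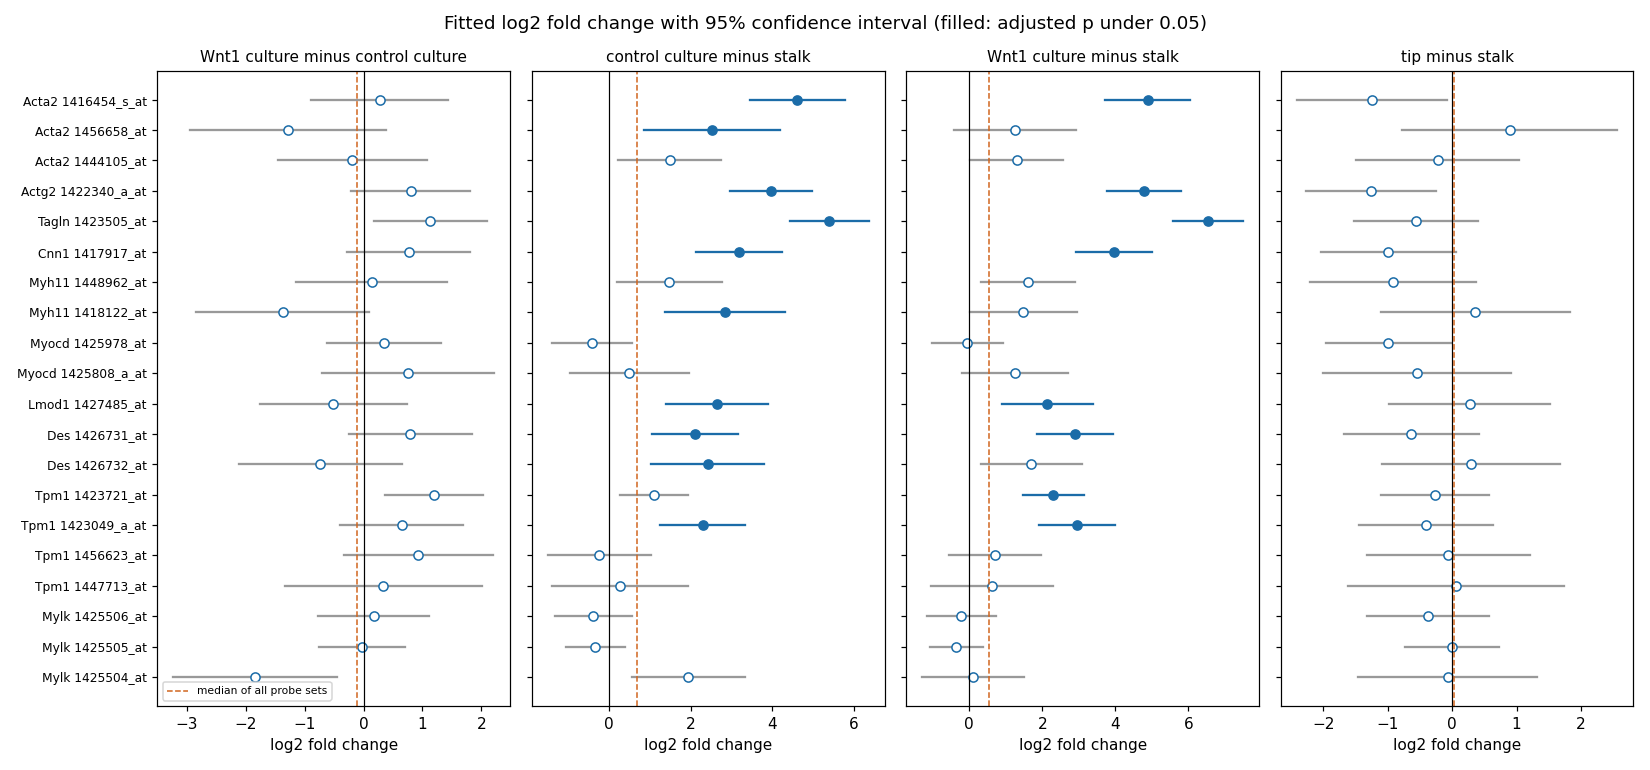
Log2 fold change of each member probe set, with its 95% interval, in Wnt1 culture minus control culture, control culture minus stalk, Wnt1 culture minus stalk and tip minus stalk. Filled points are called (limma, adjusted p under 0.05), the solid vertical line marks 0, and the dashed line marks the median of all probe sets. Calls are found in the culture and stalk comparisons, 10 and 8 of them, and none in the other panels.

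The rank of a member among all probe sets of its own array does not depend on the scaling of that array. Tagln stood at percentiles 98.2 to 99.4 on the culture arrays and 56.0 to 67.2 on the uncultured arrays, and Actg2 at 98.0 to 99.0 and 49.8 to 77.4. Acta2 by its brightest probe set stood at 99.8 to 100 in culture and 82.9 to 96.1 without it, and Cnn1 at 89.2 to 95.2 and 16.4 to 59.8. In these 4 genes each culture array ranked above each uncultured one. How many of all probe sets separate in this way was not counted, and a rank does not remove the difference in the 3' to 5' ratio. The brighter Tpm1 probe sets and Des by its brighter probe set showed the same separation, with the second brightest Tpm1 probe set at 94.7 to 98.0 in culture and 77.1 to 82.8 without it. Myh11 by its brighter probe set stood at 52.7 to 74.4 in culture and 5.4 to 51.3 without it, so that the nearest arrays were almost level. Mylk by its brightest probe set stood at 94.2 to 94.5 in culture and 88.5 to 95.3 without it, and Myocd by its brighter probe set at 66.0 to 79.7 and 61.1 to 79.8.

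**Figure D3:**
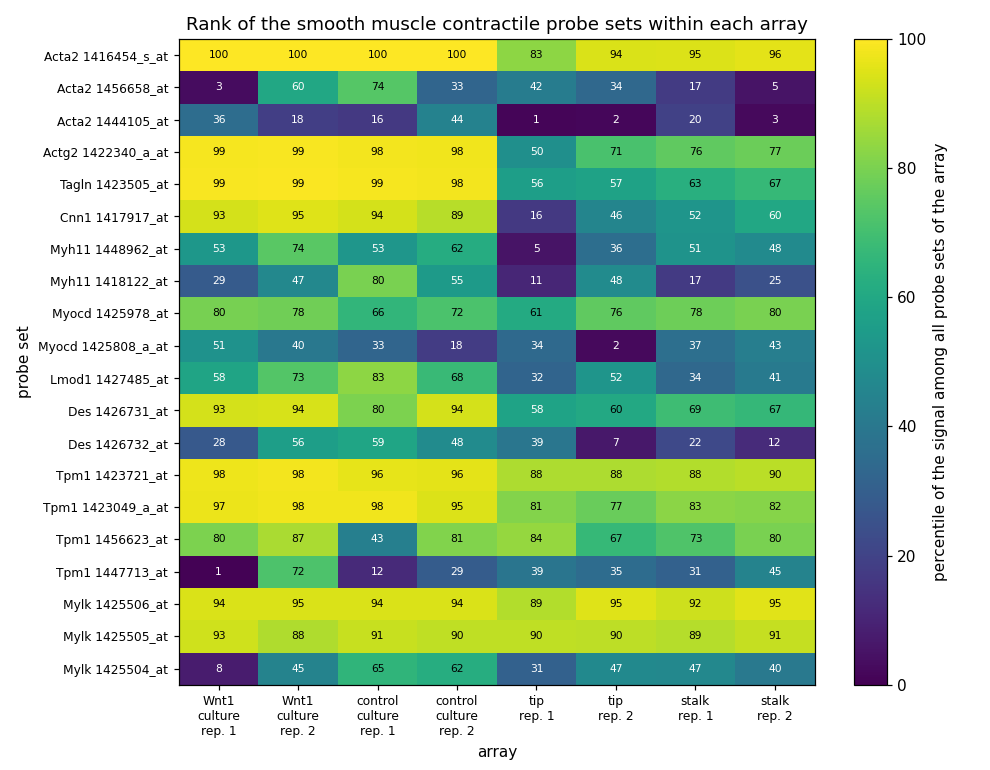
Percentile (0 to 100, colour and printed whole number) of each of the 20 member probe sets, in rows, among all probe sets of the same array, in columns, with the groups Wnt1 culture, control culture, tip and stalk from left to right. Tagln is at 98.2 or above in both culture groups and at 67.2 or below in tip and stalk, whereas the ranges of Mylk and Myocd overlap between cultured and uncultured arrays.

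With values below 298.6 raised to that floor, control culture minus stalk called 2 members, Actg2 (4.09, limma adjusted p = 0.043) and Tagln (5.16, limma adjusted p = 0.041). Wnt1 culture minus stalk called 0, with the fold changes of Acta2, Actg2, Tagln and Cnn1 between 3.07 and 6.30 and their limma adjusted p between 0.061 and 0.073. With quantile normalization, which gives all arrays the same distribution, 6 member probe sets were called in control culture minus stalk and 7 in Wnt1 culture minus stalk. These were Acta2, Actg2, Tagln, Cnn1 and both brighter Tpm1 probe sets, with Des in the Wnt1 comparison. The Tagln change was then 5.14 in control culture and 5.98 in Wnt1 culture. Under this normalization the median of all probe sets was 0.025 and 0.018 in these comparisons.

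Wnt1 culture against control culture asked whether Wnt1 changed the contractile genes beyond culture alone. Of the 20 member probe sets 0 were called, and 0% of all probe sets were (limma; smallest adjusted p over all probe sets 0.25, and 0.56 over the members). At an unadjusted p under 0.05, 3 of the 20 members and 7.8% of all probe sets passed. The members' median log2 fold change was 0.31, against -0.11 over all probe sets. Both Wnt1 arrays were above both control arrays for 6 member probe sets and below them for 3, against 9.31% and 16.3% of all probe sets.

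The Wnt1 replicates did not give the same picture. Tagln had 13439 and 41328 in Wnt1 culture, against 12300 and 9306 in control culture, and replicate 2 of Wnt1 culture alone stood clear of the rest. Its log2 fold change was 1.14 ± 0.45 (SE; limma adjusted p = 0.59), and 0.33 without that replicate. Tpm1 by its brightest probe set, with 4975 and 11477 in Wnt1 culture against 2965 and 3622 in control culture, had the largest positive difference at 1.20 ± 0.39 (SE; limma adjusted p = 0.56), and 0.60 without replicate 2. Actg2 had 9150 and 23174 in Wnt1 culture, against 8366 and 8270 in control culture, a difference of 0.81 ± 0.47 (SE; limma adjusted p = 0.72) that was 0.14 without replicate 2. Cnn1 had 1774 and 3535 in Wnt1 culture, against 1777 and 1185 in control culture, and its 0.77 ± 0.49 (SE; limma adjusted p = 0.74) was 0.28 without it. So replicate 1 of Wnt1 culture lay within or near the control arrays for Tagln, Actg2 and Cnn1. For Tpm1 by its brightest probe set it lay above both control arrays.

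Acta2 by its brightest probe set had 122878 and 107622 in Wnt1 culture, against 101822 and 89032 in control culture. Both Wnt1 arrays were higher, but the 95% interval of the difference ran from -0.89 to 1.44 on the log2 scale, so the interval holds 0. Des by its brighter probe set had 1752 and 2658 in Wnt1 culture, against 691 and 2144 in control culture, and the groups overlapped. The differences furthest below 0 were those of a pair of dim probe sets. Mylk by its dimmest probe set had 33.1 and 127 in Wnt1 culture, against 443 and 304 in control culture (-1.84 ± 0.64, SE; limma adjusted p = 0.57), and Myh11 by its dimmer probe set had 126 and 136 in Wnt1 culture, against 678 and 239 in control culture (-1.37 ± 0.68, SE; limma adjusted p = 0.66). Brighter probe sets of these genes overlapped between the groups, with Myh11 by its brighter probe set at 319 and 374 in Wnt1 culture against 321 and 300 in control culture.

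Replicate 2 of Wnt1 culture also had the lowest array median of the culture arrays, 149, and the lowest 3' to 5' ratio of Actb among them, 6.81. Its epithelial markers summed to 12414, against 4194 on the other Wnt1 array and 4974 and 5414 in control culture, with Krt8 and Krt18 at 4384 and 6905 on that array. Other epithelial markers were not high there, with Nkx2-1 at 86.8 on that array against 714 on the other Wnt1 array, and Sftpc at 77.4 against 356. The part of these in the higher member signals of that array was not tested.

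Tip against stalk mesenchyme asked whether the contractile genes differ along the branch before culture. Tip was lower than stalk in most members, but 0 of 20 probe sets were called and 0% of all probe sets were (limma; smallest adjusted p 1). An unadjusted p under 0.05 was reached by 3 members, Acta2, Actg2 and Myocd, and by 0.404% of all probe sets. The members' median log2 fold change was -0.32, against 0.030 over all probe sets, and 14 of 20 were below 0. Both tip arrays were below both stalk arrays for 10 member probe sets and above them for 1, against 14.3% and 19% of all probe sets. The only one above was the second brightest Acta2 probe set, with 69.5 and 43.1 in tip against 16.4 and 3.32 in stalk.

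Acta2 by its brightest probe set had 800 and 3160 in tip, against 3321 and 4457 in stalk. Replicate 1 of tip stood far below replicate 2, which was close to the lower stalk array. The log2 fold change was -1.24 ± 0.54 (SE), and it was -0.28 without tip replicate 1 and -2.21 without tip replicate 2. Actg2 had 98.7 and 304 in tip, against 456 and 525 in stalk, a difference of -1.26 ± 0.47 (SE) that was -0.62 without tip replicate 1. Myocd by its brighter probe set had 175 and 427 in tip, against 549 and 641 in stalk, and its -0.99 ± 0.45 (SE) was -0.44 without that replicate. In each of these genes replicate 1 of tip was the lowest of all 8 arrays. For Actg2 and Myocd it was below the floor, and with the signal floor their changes were -0.70 and -0.73.

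Cnn1 had 15 and 71.2 in tip, against 105 and 136 in stalk, and Tagln had 133 and 123 in tip, against 189 and 232 in stalk. All of these values were below the floor, as were those of Des by its brighter probe set, with 148 and 144 in tip against 278 and 225 in stalk. The tip arrays were lower throughout, with differences of -0.99 ± 0.49 for Cnn1, -0.56 ± 0.45 for Tagln and -0.63 ± 0.49 for Des (SE, log2). These SEs also draw on the wider spread of the culture arrays. Tpm1 by its brightest probe set had 1230 and 1241 in tip, against 1367 and 1640 in stalk, and Mylk by the second brightest probe set had 1694 and 1673 in tip, against 1441 and 1966 in stalk, where the groups overlapped. Mylk by its brightest probe set, with 1370 and 3522 in tip against 2179 and 3764 in stalk, again had its lowest value on tip replicate 1.

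Markers of other cells also differed between these arrays. The 8 endothelial markers summed to 3564 and 5334 in tip and to 6178 and 8032 in stalk, the 7 macrophage markers to 1113 and 4365 in tip and 3456 and 4178 in stalk, and the 6 mesothelial markers to 7503 and 4420 in tip and 3532 and 3266 in stalk. Among the tip and stalk arrays tip replicate 1 had the lowest endothelial and macrophage sums and the highest mesothelial sum. The 7 pericyte markers, which mark the contractile cells of small vessels, summed to 9184 and 9235 in tip and to 13567 and 11950 in stalk. The part of these cells in the member differences was not tested.

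By probe set, the order of the group means was Wnt1 culture, control culture, stalk and tip for Acta2 by its brightest probe set, Actg2, Tagln, Cnn1, Myh11 by its brighter probe set, Des by its brighter probe set and both brighter Tpm1 probe sets. In all of them control culture and Wnt1 culture, and stalk and tip, were neighbours whose difference was not called. The step between control culture and stalk was called for each of them except Myh11 and the brightest probe set of Tpm1. For Myocd the order was stalk, Wnt1 culture, control culture and tip, and no comparison of neighbours made here was called.

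Across the 8 arrays the member probe sets followed their common profile to different degrees. The correlation of each with the mean of the standardised member profiles, of which it was itself a part, was 0.99 for Actg2 and Cnn1 and 0.98 for Acta2 by its brightest probe set. It was 0.38 for Myocd by its brighter probe set, 0.038 for Mylk by its brightest probe set and -0.73 for Mylk by the second brightest probe set. Of 13963 other genes above the floor on some array, Lamtor4, Tmem160, Nupr1, Rfk and Tpm2 had the profiles most like it, with Pearson r between 0.985 and 0.992 over 8 arrays. The 8 points fall into cultured and uncultured arrays, which also differ in median and in the 3' to 5' ratio of Actb. Nupr1 read 470 and 1069 in Wnt1 culture, 921 and 758 in control culture, 9.0 and 4.79 in tip and 20.2 and 26.1 in stalk.

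Further genes of the contractile apparatus, 24 in a fixed list of which 23 were measured, were taken by 1 probe set each. In control culture minus stalk 7 were higher, 0 were lower and 16 were not called, with a median log2 fold change of 0.89. For comparison, 2234 of all 18193 genes were higher and 1277 lower, with a median of 0.50. Tpm2, the beta tropomyosin, had 17370 and 27642 in control culture, against 2834 and 3380 in stalk (2.81 ± 0.42, SE; limma adjusted p = 0.0042). Myl9, the smooth muscle myosin regulatory light chain that Mylk phosphorylates, had 9464 and 4973 in control culture, against 1509 and 1859 in stalk (2.01 ± 0.51, SE; limma adjusted p = 0.025). Jph2, a junctophilin of muscle membranes, and Myl6, a myosin light chain present in many cells, were higher by 2.72 and 1.63. Cald1, caldesmon, overlapped between the groups, with 3446 and 13930 in control culture against 16720 and 12231 in stalk.

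In Wnt1 culture minus stalk 7 of these 23 partners were again higher and 0 lower, with a median of 1.31. Of all 18193 genes 753 were higher and 807 lower, with a median of 0.41. The largest changes among the partners named were Tpm2 at 2.98, Myl9 at 2.81, Pdlim3, a Z-line protein, at 2.36 and Jph2 at 2.14. Under quantile normalization 4 of the 23 were called in either comparison, and with the signal floor 0 were. Wnt1 culture minus control culture and tip minus stalk called 0 partners, with medians of 0.17 and -0.18.

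The regulators of the smooth muscle program mostly did not pass the test. Of 12 measured, Fhl2, a cofactor of serum response factor, and Mrtfa, its actin-regulated coactivator, were higher in control culture than in stalk, and Foxf1, a mesenchymal transcription factor counted also among the lung mesenchyme markers, was lower. Of all 18193 genes 2234 were higher and 1277 lower, so the regulators were called at near the share of all genes. Fhl2 had 1076 and 695 in control culture, against 322 and 301 in stalk, and Mrtfa had 644 and 509 in control culture, against 172 and 168 in stalk. Their log2 fold changes were 1.36 ± 0.39 and 1.53 ± 0.48 (SE; limma adjusted p = 0.035 and 0.045). Foxf1 had 784 and 603 in control culture, against 1441 and 1678 in stalk, a fold change of -1.13 ± 0.37. In Wnt1 culture, where 753 of all 18193 genes were higher than in stalk and 807 lower, Fhl2 was higher by 1.54 and Foxf1 changed by -1.72. Under quantile normalization 0 of the 12 were called in either comparison.

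Srf, serum response factor itself, was called in none of the 4 comparisons, with 1202 and 1472 in Wnt1 culture, 1055 and 2014 in control culture, 1717 and 1361 in tip and 1488 and 2268 in stalk. Both Wnt1 arrays lay just below both stalk arrays, and the other groups compared overlapped. Mrtfb, the other actin-regulated coactivator, had 614 and 1507 in control culture, against 1705 and 1844 in stalk, and was not called. Tgfb1i1, a focal adhesion protein and coregulator, had 880 and 2777 in control culture, against 633 and 493 in stalk, and missed the threshold at 1.42 (limma adjusted p = 0.057). The cytoplasmic actins, myosins and linked proteins gave 0 calls among 10 in each comparison with stalk. Actb, the beta actin of all cells, had 71499 and 52206 in control culture, against 31768 and 21448 in stalk, at 1.23 (limma adjusted p = 0.099).

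Some markers of striated muscle were also higher in culture than in stalk. Their median log2 fold change was 1.62 in control culture minus stalk and 1.51 in Wnt1 culture minus stalk, with 19 of 20 above 0 in each. The members' medians by 1 probe set per gene were 2.38 and 2.60. In tip minus stalk the median of the striated muscle markers was 0.17, against -0.77 for the members. Of 20 such markers 7 were higher in control culture than in stalk and 6 in Wnt1 culture, with 0 lower, against 2234 and 753 higher of all 18193 genes. Under quantile normalization 4 were called in each. With the signal floor 1 was called in control culture and 0 in Wnt1 culture. Their summed signal was 18438 and 22082 in Wnt1 culture and 14695 and 12941 in control culture, against 3614 and 3568 in tip and 3276 and 2473 in stalk. Actc1, the cardiac actin, had 4098 and 8742 in Wnt1 culture and 2482 and 3349 in control culture, against 194 and 220 in stalk. The cardiac troponin Tnnt2 and the atrial peptide Nppa were higher by 2.31 and 2.94 on the log2 scale in control culture. The cardiac markers Myh6 and Tnni3 were below the floor on all 8 arrays. The part of striated muscle cells in the member signals was not tested.

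The marker counts that follow stand beside those of all 18193 genes, 2234 higher and 1277 lower in control culture than in stalk, and 753 and 807 in Wnt1 culture. Of 8 epithelial markers 2 were higher in control culture than in stalk and 1 in Wnt1 culture, with 0 lower, and 1 and 0 were called under quantile normalization. Their sums were 4194 to 12414 on the culture arrays and 1473 to 2597 without culture, the highest on the array where Krt8 and Krt18 stood out. Epcam was at 904 ± 92.6 in control culture and 145 ± 12.4 in stalk (SD, n = 2 each). Pericyte markers gave 0 higher calls in either culture comparison, and Rgs5 was lower in Wnt1 culture, at -1.43. The 7 pericyte markers did not move together, with 5 above 0 in control culture minus stalk and 3 in Wnt1 culture minus stalk. Their median log2 fold changes were 0.88 and -0.57, against 0.50 and 0.41 over all 18193 genes. Of the 7 macrophage markers 2 were higher in control culture and 0 in Wnt1 culture, and their sums were 6145 to 16298 in culture and 1113 to 4365 without it. Of the endothelial markers 4 were lower in control culture and 3 in Wnt1 culture. The pericyte sums were 4562 to 10888 in culture and 9184 to 13567 without it, and on the stalk arrays Pdgfrb alone read 9816 and 8589. The part of these cells in the member signals was not tested.

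**Figure D4:**
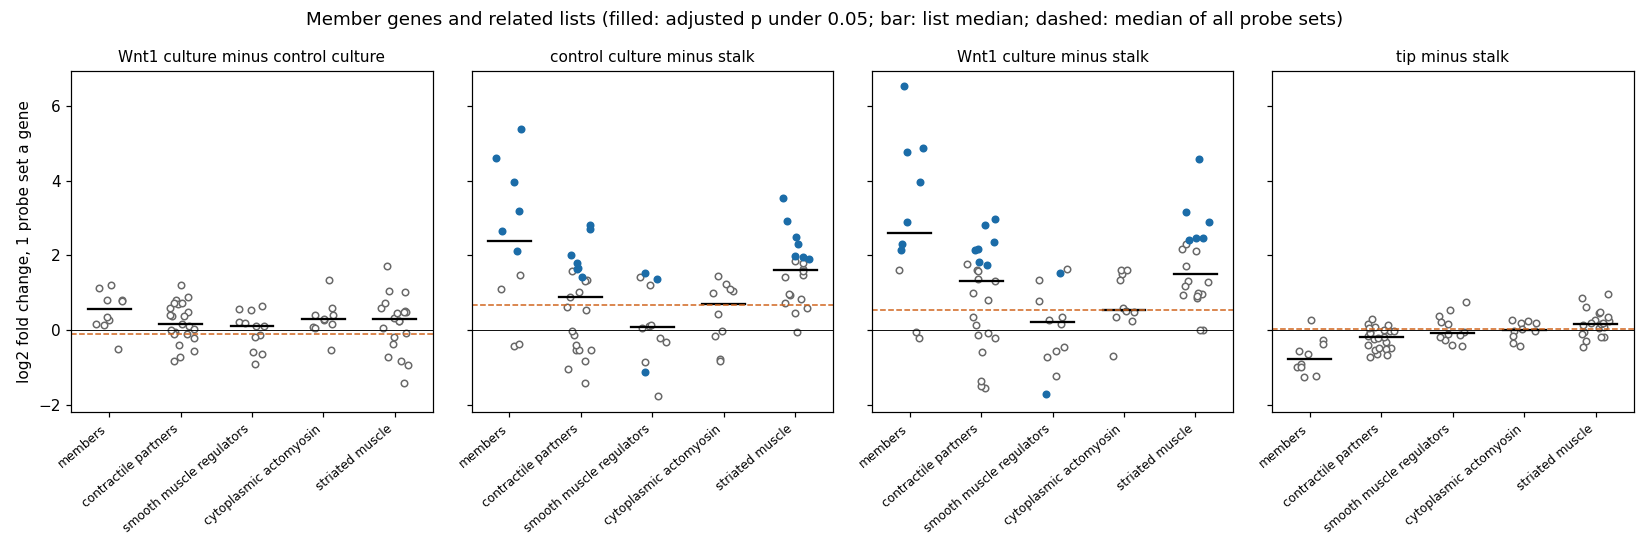
Log2 fold change of every measured gene of the lists of contractile members, contractile partners, smooth muscle regulators, cytoplasmic actomyosin and striated muscle markers in the 4 comparisons, 1 probe set per gene, with filled points for called genes (limma, adjusted p under 0.05), a bar for each list's median and a dashed line for the median of all probe sets. The contractile members lie highest by median in the culture and stalk comparisons, at 2.38 in control culture and 2.60 in Wnt1 culture. The medians were 1.62 and 1.51 for the striated muscle markers and 0.89 and 1.31 for the partners.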

How the data were processed

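Total RNA from 8 mouse lung mesenchyme samples was hybridised to Affymetrix arrays after 2 rounds of cDNA synthesis, per the labels' protocols. The authors deposited 1 linear intensity per probe set and array. The submitters' processing notes name MAS5 and Affymetrix Expression Console, with versions not given in the sources used here. Every array had a 2% trimmed mean of 500. Detection calls were not used here. Of 45101 probe sets 64 controls were left out, and genes were named from the platform annotation, in which 932 probe sets with several symbols held no member.

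Values were tested as log2(value + 44), 44 being their 25th percentile, which understates the change of dim probe sets. All 8 arrays entered 1 fit without filter or covariates (lmFit, then eBayes with trend, from limma 3.58.1 under R 4.3.3). The fit gives each probe set 1 spread for all groups. Over all probe sets the median absolute log2 difference between replicates was 0.30 in tip and in stalk, 0.68 in control culture and 0.80 in Wnt1 culture. The SE of tip minus stalk may therefore be too wide, and that of Wnt1 culture minus control culture too narrow. P-values are two-sided and adjusted by Benjamini-Hochberg over 45037 probe sets, with a threshold of 0.05. The comparisons with stalk share the stalk arrays, and those with control culture share the control arrays. With 2 arrays against 2 an exact permutation test cannot give p below 0.333, so none was run, and the number of arrays limits the precision. A fold change no larger than its SE is not given. The test was tried on simulated data first. Plots were made in Python 3.11.15 with matplotlib 3.10.9.

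The members and gene lists were chosen with earlier results of these data known. Genes of a list were taken by the probe set with the highest mean. Named were all members, up to 4 genes per comparison and direction with the smallest p among those past the threshold in the lists of contractile partners, regulators and cytoplasmic actomyosin, always Srf, Mrtfa, Mrtfb, Tgfb1i1, Actb, Myl9, Tpm2 and Cald1, and the 5 genes most like the members' mean profile. Cell type markers were named after their values were seen. Deviations of same-numbered arrays from their group means correlated at -0.02 to 0.23 across probe sets, so the numbers were not taken to pair the arrays.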

Additional observations from a re-analysis of the deposited data

How the results depend on the processing

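The 20 alternatives, 18 planned and 2 added after seeing the data, left each comparison without a lower member, and left Wnt1 culture minus control culture and tip minus stalk without any member called. For control culture minus stalk the count of members higher was 2 with the signal floor, 6 with quantile normalization, 6 with 1 probe set per gene (of 10), and 4 to 13 with 1 array left out. For Wnt1 culture minus stalk it was 0 with the floor and 4 to 9 with 1 array left out. The members' median log2 fold change in control culture minus stalk was 1.61 with a pseudocount of 100, 0.37 with the floor, 1.53 with quantile normalization, 2.38 with 1 probe set per gene, 1.70 without both culture arrays numbered 1 and 1.70 to 2.20 with 1 array left out. In Wnt1 culture minus stalk it was 2.02 and 1.03 with pseudocounts of 16 and 100, 0.14 with the floor, 0.81 with quantile normalization, 2.60 with 1 probe set per gene, 1.96 without both culture arrays numbered 1 and 1.46 to 1.96 with 1 array left out. With 1 probe set per gene it was 0.56 in Wnt1 culture minus control culture and -0.77 in tip minus stalk, and with the floor 0 in tip minus stalk. The sign turned for the second brightest Acta2 probe set in Wnt1 culture minus control culture (0.64 without both culture arrays numbered 1), for the second brightest Mylk probe set in Wnt1 culture minus stalk (0.11 with quantile normalization) and for the second brightest Tpm1 probe set in Wnt1 culture minus control culture (-0.079 to 1.37 with 1 array left out). The floor ties dim values, so a member at or below it in both groups gave no value, and the other causes were not tested. Calls over all probe sets were 146 to 14446 for control culture minus stalk (7755 as reported), 11 to 13537 for Wnt1 culture minus stalk (2973), 0 to 126 for Wnt1 culture minus control culture (0) and 0 to 3 for tip minus stalk (0). With the replicate block, where the arrays share only a number, 12 members were higher in control culture minus stalk and 8 in Wnt1 culture minus stalk, and calls over all probe sets were 11953 and 7089. Signal near or below the floor limits Myh11, Lmod1 and the dimmer Myocd and Des probe sets. In tip and stalk it limits all members but Acta2, Tpm1, Mylk, Actg2 and Myocd. It also limits Actg2 and Myocd in tip, where replicate 1 was below the floor. The floor is the median of control culture replicate 1 and lies above the medians of all tip and stalk arrays. Tagln and the brighter Des probe set exceeded the median of their own array on 8 of 8 arrays, and Cnn1 on 6.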
